A study of Mus musculus with 15 samples.

Results

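Levels of 10 genes of trophoblast fate were measured in 15 mouse lines that had been reprogrammed into induced extraembryonic endoderm (iXEN) cells. The genes were Cdx2, Eomes, Gata3, Elf5, Tfap2c, Hand1, Gcm1, Esx1, Plac1 and Krt7. They were chosen by name as regulators or markers of the trophoblast, with earlier results of these data known. All 10 were found among the 43432 Ensembl gene identifiers of the deposited count tables.

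Trophoblast is the outer lineage of the early embryo, which builds the placenta. It separates from the inner cell mass first, and the inner cell mass then gives rise to the epiblast and to the primitive endoderm, the lineage whose culture counterpart is the XEN cell. Cdx2 and Eomes are needed for the trophectoderm and its stem cells in the mouse, Hand1 and Gcm1 act when these stem cells differentiate into giant cells and labyrinth, and XEN cells are known for high Gata4, Gata6 and Sox17 in place of these factors.

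All lines were of CD1 genotype and came, as the series' design states, from embryonic fibroblasts given reprogramming factors by virus, with polyadenylated RNA sequenced from 5 lines in each of 3 groups. The retroviral OSKM lines were clones grown from single cells positive for an Oct4-EGFP reporter after retroviral Oct4, Sox2, Klf4 and Myc. The lentiviral OSKM lines received the same factors by lentivirus, and the lentiviral SKM lines received Sox2, Klf4 and Myc without Oct4. The lentiviral lines were beyond passage 11 and each came from its own fibroblast preparation. The labels do not say whether the retroviral clones share a preparation, and any p-value that uses them reflects the spread among clones, which may be technical. Retroviral lines and lentiviral lines were deposited in separate count tables, so virus, cloning and table cannot be told apart. No passage is given for the retroviral lines, so passage cannot be separated from these either. Titles of the lentiviral lines begin with IPS, and further fields name each of them except lentiviral OSKM replicate 1 as induced pluripotent. For that line and the retroviral lines, the treatment text instead starts from embryonic stem cells.

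Libraries held 34916933 to 46995817 counts in genes in the retroviral OSKM group, 64348250 to 73405134 in the lentiviral OSKM group and 60998360 to 75376275 in the lentiviral SKM group. Levels are given as CPM, counts relative to library size, scaled by trimmed mean of M values (TMM) factors. A count of 0 allows up to 3 counts, which corresponded to 0.0386 to 0.0851 CPM, and a gene with more than 3 counts was taken as above the detection limit. This limit covers counting error only. All 13 genes of a list of XEN and primitive endoderm markers were above 1 CPM in every line, with Gata4 at 550 to 1381 CPM and Sox17 at 320 to 668 CPM. The 3 libraries with the lowest mean Spearman correlation with the others, over 16318 genes, were retroviral OSKM replicate 3 (0.909), retroviral OSKM replicate 1 (0.915) and lentiviral OSKM replicate 5 (0.927), against 0.932 to 0.954 for the rest.

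Among the 10 genes, Cdx2 and Esx1 were highest in the same line, lentiviral OSKM replicate 5, and Gata3 and Eomes in retroviral OSKM replicate 1. The promoters of these 4 genes are shown for that reason, as RefSeq gives them on GRCm38.p6, from 250 bases before to 50 bases after the annotated start, 5′ to 3′ on the gene's strand, with CpG dinucleotides in capitals. Cdx2 lies on the minus strand (chr5:147307200-147307499), Esx1 on the minus strand (chrX:137120277-137120576), Gata3 on the minus strand (chr2:9878551-9878850) and Eomes on the plus strand (chr9:118477939-118478238). The stretches of Gata3 and Esx1 lie inside the genes as GENCODE M21 bounds them, with upper bounds at 9890034 and 137122083. RefSeq and GENCODE M21 thus differ on where these genes start.
Cdx2: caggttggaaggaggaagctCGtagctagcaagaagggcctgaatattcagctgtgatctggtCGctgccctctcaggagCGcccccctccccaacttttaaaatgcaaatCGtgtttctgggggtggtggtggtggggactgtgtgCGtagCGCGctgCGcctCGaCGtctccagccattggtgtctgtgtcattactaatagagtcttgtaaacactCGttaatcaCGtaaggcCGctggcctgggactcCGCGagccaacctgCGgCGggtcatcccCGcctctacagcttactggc
Esx1: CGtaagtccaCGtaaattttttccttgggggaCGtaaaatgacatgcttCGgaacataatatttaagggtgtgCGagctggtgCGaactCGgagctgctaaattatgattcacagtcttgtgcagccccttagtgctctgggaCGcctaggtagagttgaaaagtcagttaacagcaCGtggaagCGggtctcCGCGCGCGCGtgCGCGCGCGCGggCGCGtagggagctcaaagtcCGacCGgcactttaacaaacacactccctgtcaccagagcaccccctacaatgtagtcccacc
Gata3: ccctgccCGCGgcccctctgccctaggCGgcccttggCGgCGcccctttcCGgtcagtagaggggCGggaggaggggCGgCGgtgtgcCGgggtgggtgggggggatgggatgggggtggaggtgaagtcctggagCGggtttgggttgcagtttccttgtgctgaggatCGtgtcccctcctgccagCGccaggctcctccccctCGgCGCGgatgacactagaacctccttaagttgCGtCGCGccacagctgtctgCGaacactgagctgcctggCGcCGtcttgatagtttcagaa
Eomes: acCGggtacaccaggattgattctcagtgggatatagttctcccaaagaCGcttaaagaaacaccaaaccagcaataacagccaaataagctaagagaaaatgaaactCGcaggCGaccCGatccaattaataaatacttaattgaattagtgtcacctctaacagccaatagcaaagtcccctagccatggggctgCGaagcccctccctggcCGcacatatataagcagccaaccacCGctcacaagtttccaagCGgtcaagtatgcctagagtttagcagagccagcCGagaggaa

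CpG dinucleotides numbered 18 for Cdx2, 24 for Esx1, 22 for Gata3 and 10 for Eomes, against a median of 7 over 32851 RefSeq promoters of the same length. The share of all promoters with fewer CpG than these was 70.3% for Cdx2, 80.0% for Esx1, 76.9% for Gata3 and 56.5% for Eomes. Promoter entries were matched for 8 of the 10 genes, with 10 promoters in all, and none was matched for Tfap2c or Hand1. Krt7 had 21 CpG, the promoters of Elf5 had 3 and 10, those of Plac1 had 6 and 3, and Gcm1 had 1, where 5.4% of promoters had fewer. The motif TATAAA, searched on both strands, was in 0 of the 10 promoters and in 13.6% of all promoters. The motif AGATAA, also searched on both strands, was in 1 of the 10, a Plac1 promoter, and in 11.2% of all promoters.

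The 10 genes were low throughout. Of 150 pairs of gene and line, 104 were above the detection limit and 38 were above 1 CPM. In all, 6 genes exceeded 1 CPM in at least 1 line: Gata3 in 13 lines, Plac1 in 9, Krt7 in 8, Esx1 in 4, Eomes in 3 and Cdx2 in 1. Elf5, Tfap2c, Hand1 and Gcm1 stayed below 1 CPM in all 15 lines. None of the 10 exceeded 20 CPM in any line, a level that 9281 genes reached in some line, 32.5% of the genes with any count. In bulk RNA, a few cells with much of a transcript and many cells with little of it cannot be told apart.

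**Figure D1:**
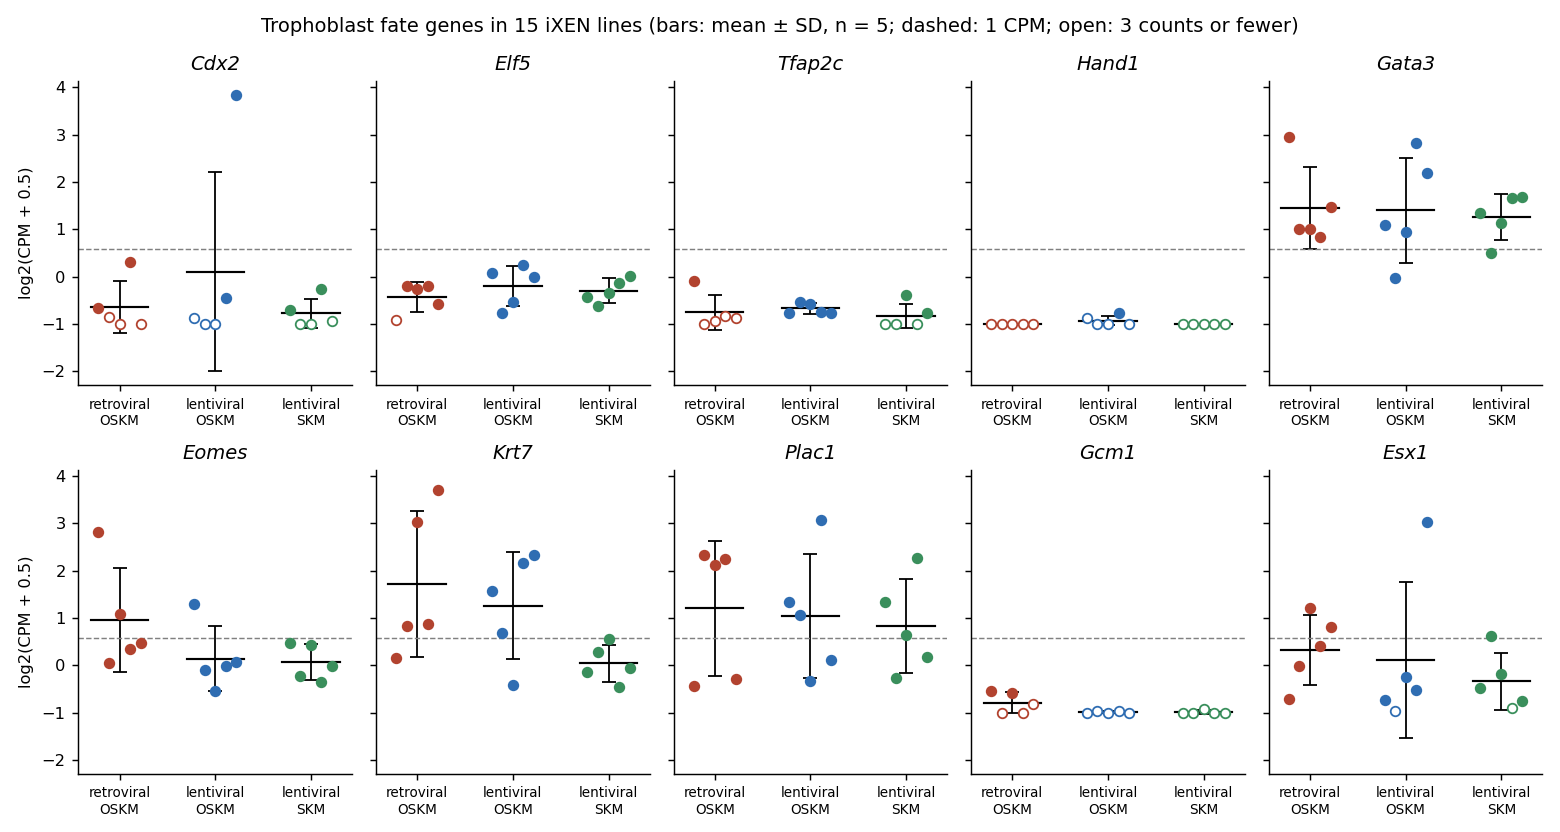
Level of each of the 10 trophoblast fate genes as log2(CPM + 0.5) in each of 15 lines, with replicates 1 to 5 from left to right in each group, mean and SD as black bars (n = 5), 1 CPM as a dashed line, and open points for 3 counts or fewer. Cdx2 and Esx1 each have a single high point in the lentiviral OSKM group (replicate 5), Gata3 lies above 1 CPM in 13 lines, and Hand1 and Gcm1 lie at the bottom of the scale in all groups.

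Levels of different genes were compared per kilobase of annotated exon. By the median over the 15 lines, Plac1 came first with 1.13 CPM per kb, ahead of Gata3 with 0.427, Esx1 with 0.176, Krt7 with 0.157 and Eomes with 0.131 CPM per kb. Elf5 had a median of 0.057, Tfap2c of 0.0234 and Cdx2 of 0.0197 CPM per kb, and the medians of Hand1 and Gcm1 were 0. By the highest line the order was different: Cdx2 reached 6.11, Plac1 5.62 and Esx1 3.86 CPM per kb, ahead of Gata3 with 1.82, Krt7 with 1.77 and Eomes with 1.56 CPM per kb. The ranges of Gata3, Esx1, Krt7 and Eomes overlapped widely. Differences between neighbours in these orders were not tested line by line.

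Cdx2 (GRCm38, chr5:147300805-147307270, minus strand, 3 exon blocks) encodes a caudal-type homeobox factor that specifies trophectoderm and later patterns the posterior embryo and intestine. In retroviral OSKM lines 1 to 5 it was at 0.135, 0.0536, 0, 0.738 and 0 CPM. In lentiviral OSKM lines it was at 0.0445, 0, 0, 0.226 and 13.8 CPM, and in lentiviral SKM lines at 0.111, 0, 0, 0.33 and 0.0258 CPM. A single line therefore held 962 of the 1043 Cdx2 counts of the study, and 9 of the 15 lines were at or below the detection limit. The level in that line, lentiviral OSKM replicate 5, had a counting interval (exact Poisson, 95%) of 13.0 to 14.7 CPM, and it was 18.7 times the next highest, retroviral OSKM replicate 4. Within its group, the gap between this line and its nearest neighbour took 0.89 of the whole range on the log2(CPM + 0.5) scale. This is beyond the critical value of Dixon's test for 5 samples (0.71). Chance passes that value in about 1 in 20 groups of normally distributed values, a rate that need not hold with lines at 0, as here. Retroviral OSKM replicate 4, with 26 counts, also stood apart in its group at 0.74 of the range, though not with a pseudocount of 0.1. With 6 lines at 0 and 9 under the limit, Cdx2 did not pass the filter on low counts in any comparison and was not tested between groups. Genes within 100 kb of Cdx2 were near 0 in lentiviral OSKM replicate 5: Urad, Flt3 and Pdx1 each had 0 CPM there and Plut had 0.33 CPM.

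Esx1 (chrX:137115397-137122083, minus strand, 5 exon blocks), an X-linked homeobox gene of the labyrinth trophoblast, was highest in the same line. Its levels were 0.108, 0.483, 1.8, 0.823 and 1.25 CPM in retroviral OSKM lines, 0.104, 0.0147, 0.349, 0.198 and 7.65 CPM in lentiviral OSKM lines, and 0.221, 1.03, 0.379, 0.033 and 0.0902 CPM in lentiviral SKM lines. The line at 7.65 CPM (counting interval 7.02 to 8.33 CPM, 533 counts) was 4.26 times the next highest line, and its gap took 0.82 of the range of its group, beyond the critical value with pseudocounts of 0.5 and 1 but not of 0.1. The groups overlapped, and besides that line 3 lines, 2 of them retroviral, exceeded 1 CPM. The protein-coding neighbours Fam199x and Slc25a53 ranked 7 and 11 of 15 in that line, with 14.4 and 6.59 CPM.

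Of the 6 genes that exceeded 1 CPM in some line, lentiviral OSKM replicate 5 held the highest level of 2, Cdx2 and Esx1. Of all 15152 genes that did so, 1516 were highest in this line. A peak in this line was therefore not particular to Cdx2 and Esx1. Lentiviral OSKM replicate 5 differed from the other lines in further markers. The fibroblast list had 8 of 10 genes above 1 CPM there, 6 of which were at their highest, with Col1a2 at 281 CPM, Col1a1 at 197 CPM, Col3a1 at 43.4 CPM and Thy1 at 40.4 CPM. The summed level of that list was 602 CPM in this line, against 0.604 to 335 CPM in the other 14 lines. Lum and Fap, fibroblast markers of the same list, did not reach 1 CPM in any line. Of the hindgut and posterior list 4 of 8 genes were above 1 CPM in that line: Hoxc9 at 10.9 CPM, Hoxa10 at 14.1 CPM, Hoxb9 at 2.23 CPM and Hoxa9 at 1.12 CPM. The summed level of this list was 29.3 CPM in that line and 2.71 to 32.6 CPM over all lines, highest in lentiviral SKM replicate 2. Cdx4 had no count in any line and Cdx1 did not exceed 0.0593 CPM. Whether fibroblasts or posterior cells have a part in the Cdx2 and Esx1 levels was not tested. Lentiviral SKM replicate 1, with the next highest fibroblast sum in the study (335 CPM), had Cdx2 at 0.111 CPM and Esx1 at 0.221 CPM. Col4a1 and Col4a2, basement membrane collagens that XEN cells make in quantity, were at 62.6 and 41.8 CPM in lentiviral OSKM replicate 5 and at 53.7 and 46.2 CPM in retroviral OSKM replicate 1. In the remaining 13 lines Col4a1 was at 5019 CPM or more and Col4a2 at 2410 CPM or more.

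Gata3 (chr2:9857078-9890034, minus strand, 10 exon blocks), a zinc finger factor active in trophectoderm and in several later tissues, was the member most often above 1 CPM. It was at 7.25, 1.5, 1.51, 1.28 and 2.28 CPM in retroviral OSKM lines, at 1.62, 0.487, 1.44, 6.55 and 4.06 CPM in lentiviral OSKM lines and at 2.04, 0.914, 1.7, 2.66 and 2.7 CPM in lentiviral SKM lines. Retroviral OSKM replicate 1 and lentiviral OSKM replicate 4 were the 2 highest, and all groups overlapped. Group means were 2.76 ± 2.54, 2.83 ± 2.46 and 2.0 ± 0.742 CPM (SD, n = 5 each). In its exons Gata3 overlaps 9230102O04Rik by 77 bases on the same strand and Gm13256 by 155 bases on the opposite strand, and these had at most 6 and 2 counts in a line.

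Eomes (chr9:118478212-118486132, plus strand, 6 exon blocks), a T-box factor of trophoblast stem cells that also acts in the primitive streak, was at 6.5, 0.536, 1.63, 0.766 and 0.882 CPM in retroviral OSKM lines. It was at 1.94, 0.428, 0.188, 0.494 and 0.546 CPM in lentiviral OSKM lines and at 0.884, 0.359, 0.849, 0.281 and 0.489 CPM in lentiviral SKM lines. Retroviral OSKM replicate 1 was thus 3.35 times the next highest line (counting interval 5.7 to 7.37 CPM), and the rest lay between 0.188 and 1.94 CPM. Among genes within 100 kb, the noncoding Platr11 and 2610509F24Rik were also highest in that line, at 5.15 and 2.97 CPM against medians of 0, whereas Golga4 ranked 11 of 15.

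Retroviral OSKM replicate 1 held the highest level of 4 of the 10 genes: Gata3, Eomes, Tfap2c and Gcm1, the last at 7 counts. Of the 6 genes that exceeded 1 CPM in some line it held the highest level of 2, beside 1519 of all 15152 genes that did so. Other genes of the 10 went the other way: Elf5 (0.027 CPM, 1 count) and Plac1 (0.243 CPM) were at their lowest of the 15 lines. Cdx2 was at 0.135, Esx1 at 0.108 and Hand1 at 0 CPM. Of the 10 genes 2 were above 1 CPM in retroviral OSKM replicate 1, where the lines ran from 1 to 5. Among 20 further regulators of trophoblast stem cells, 18 were above 1 CPM in this line, against 10 to 15 in the other 14 lines. Lgals3, a galectin, was at 194 CPM there and at most 12.5 CPM elsewhere, the AP-2 factor Tfap2a at 18.6 CPM against at most 2.47 CPM, and Gata2 at 4.99 CPM against at most 1.51 CPM. Sox2, a delivered factor and also a regulator of trophoblast stem cells, was at 65.4 CPM there and at most 4.99 CPM elsewhere, and Pou5f1 (Oct4) at 72.3 CPM there. Reads from delivered and endogenous copies of these factors cannot be told apart in the counts. In this line 4 of 10 fibroblast genes and 3 of 8 posterior genes were above 1 CPM, including Prrx1 at 149 CPM and Hoxb9 at 13.1 CPM, while Lum had no count in it and Thy1 was at 0.836 CPM. Their part in the Gata3 and Eomes levels was not tested.

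Elf5 (chr2:103411688-103450989, plus strand), an ETS factor that sustains trophoblast stem cells, was above the detection limit in 14 lines yet nowhere above 0.692 CPM. It lay between 0.027 and 0.376 CPM in retroviral OSKM lines, from 0.0885 to 0.692 CPM in lentiviral OSKM lines and from 0.147 to 0.515 CPM in lentiviral SKM lines, with no line standing apart. Its neighbour Cat, 2860 bases away on the opposite strand, was at 122 to 314 CPM. The sources do not say whether counting used strand, and a contribution of reads from Cat to Elf5 was not tested. Tfap2c (chr2:172549593-172558622, plus strand), an AP-2 factor of trophectoderm and germ cells, was at or below the limit in 7 lines. Its highest level was 0.431 CPM in retroviral OSKM replicate 1, with 16 counts and a counting interval of 0.247 to 0.701 CPM. That line stood apart from the other 4 of its group, which had 0 to 2 counts each, with a gap of 0.83 of the range. In lentiviral OSKM lines Tfap2c was above the limit in all 5, at 0.0861 to 0.192 CPM, and in lentiviral SKM lines in 2 of 5.

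Hand1 (chr11:57828705-57832818, minus strand), a basic helix-loop-helix factor of giant cell differentiation, had no count in 13 of 15 lines. Lentiviral OSKM replicate 1 had 3 counts and replicate 4 had 6 counts, or 0.0848 CPM. Gcm1 (chr9:78051924-78065624, plus strand), which drives the branching of the labyrinth and the syncytiotrophoblast, had 21 counts in all, 17 of them in 3 retroviral OSKM lines. It was above the limit in 2 lines, retroviral OSKM replicates 1 and 3, at 0.189 and 0.168 CPM. The highest lentiviral SKM line had 2 counts of Gcm1, which is under the limit. The counting interval of Gcm1 in retroviral OSKM replicate 1 was 0.0759 to 0.389 CPM.

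Plac1 (chrX:53069995-53240111, minus strand, 5 exon blocks), an X-linked gene abundant in placenta, was at 0.243, 4.51, 3.86, 4.26 and 0.325 CPM in retroviral OSKM lines. It was at 2.02, 1.58, 0.295, 7.84 and 0.589 CPM in lentiviral OSKM lines and at 2.04, 0.326, 1.05, 4.28 and 0.631 CPM in lentiviral SKM lines. Each group thus held both high and low lines, and the spread within a group was larger than any difference between group means (2.64 ± 2.16, 2.46 ± 3.09 and 1.66 ± 1.6 CPM, SD, n = 5 each). Lentiviral OSKM replicate 4 was highest for Plac1 and also for the adjacent Fam122b, at 59.5 CPM against a median of 30.1 CPM.

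Krt7 (chr15:101411043-101430313, plus strand, 11 exon blocks), a keratin of simple epithelia that is widely used to mark trophoblast, was at 0.62, 1.29, 7.64, 1.33 and 12.5 CPM in retroviral OSKM lines. It was at 2.46, 1.11, 0.255, 3.97 and 4.49 CPM in lentiviral OSKM lines and at 0.411, 0.718, 0.97, 0.231 and 0.464 CPM in lentiviral SKM lines. All 5 lentiviral SKM lines were below 1 CPM, whereas 4 of 5 lines in each OSKM group were above it, although the groups still overlapped. The other simple epithelial keratins were far more abundant: Krt8 was at 247 to 1246 CPM, Krt18 at 172 to 806 CPM and Krt19 at 2.85 to 297 CPM across the 15 lines.

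**Figure D2:**
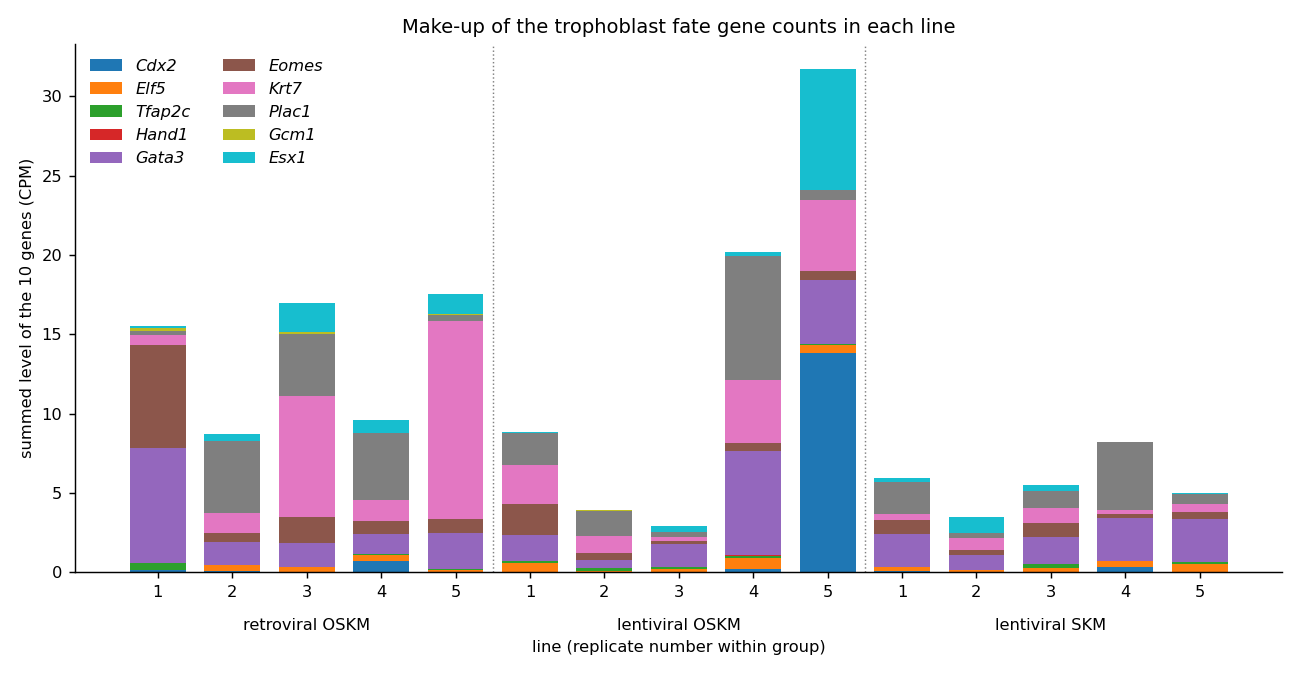
Stacked levels (CPM, linear axis from 0) of the 10 trophoblast fate genes in each of the 15 lines, by group and replicate number. The sum runs from 2.88 to 31.7 CPM, and the gene that fills most of a bar differs between lines: Krt7 in retroviral OSKM replicate 5, Cdx2 in lentiviral OSKM replicate 5, Plac1 in lentiviral SKM replicate 4.

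The make-up of the summed signal differed from line to line. The sum over the 10 genes ran from 2.88 CPM in lentiviral OSKM replicate 3 to 31.7 CPM in lentiviral OSKM replicate 5. Plac1 alone was the largest part in 5 lines, Gata3 in 4, Krt7 in 3, and Cdx2 and Esx1 in 1 each, while Plac1 and Gata3 tied in lentiviral SKM replicate 1 with 129 counts each. In lentiviral OSKM replicate 5, Cdx2 made up 43.5% and Esx1 24.1% of the sum. In retroviral OSKM replicate 1 Gata3 and Eomes together made up 88.7%, and in retroviral OSKM replicate 5 Krt7 alone made up 71.4%. No lentiviral SKM line held the highest level of any of the 10 genes, 5 of which peaked in a retroviral OSKM line and 5 in a lentiviral OSKM line. Of the 6 that exceeded 1 CPM in some line, 3 peaked in a retroviral OSKM line and 3 in a lentiviral OSKM line. Over all 15152 genes that exceeded 1 CPM in some line, 27.3% peaked in a lentiviral SKM line, 27.2% in a lentiviral OSKM line and 45.5% in a retroviral OSKM line. Pairs of gene and line above 1 CPM numbered 16 of 50 in retroviral OSKM, 14 of 50 in lentiviral OSKM and 8 of 50 in lentiviral SKM lines. Krt7 gave 4, 4 and 0 of these pairs, and Plac1 gave 3 in each group. The same share was not computed over all genes, so these counts do not set the 10 genes apart.

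Relations over the 15 lines were computed among the 6 genes that reached 5 CPM in some line. Of 15 pairs, the highest Pearson correlation of log2(CPM + 0.5) was that of Cdx2 and Esx1, at r = 0.73 (two-sided permutation test with 100000 resamples, p = 0.0392, adjusted p = 0.294), with Spearman's rho at -0.06 (permutation p = 0.839, adjusted p = 0.961). Without the 2 lines farthest from the median of Cdx2 the coefficient was -0.49, so the relation rested on those lines. Krt7 and Esx1 had r = 0.58 (permutation p = 0.0208, adjusted p = 0.294) and rho = 0.57 (permutation p = 0.0278, adjusted p = 0.417), with r = 0.52 without the 2 farthest lines and 0.50 over the 10 lentiviral lines. No coefficient is given for the retroviral group alone, which had 5 lines. None of the 15 pairs passed after Benjamini-Hochberg adjustment.

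Genes with the most similar pattern were sought among 11603 genes averaging 1 CPM or more, by Pearson correlation of log2(CPM + 0.5) over the 15 lines, as a description. Npr3, a natriuretic peptide clearance receptor, followed Cdx2 most closely, with r = 0.95, rho = 0.87 and r = 0.89 without the 2 farthest lines, and it also peaked in lentiviral OSKM replicate 5 at 14.6 CPM. Without those 2 lines Cdx2 was at most 0.33 CPM, with 9 lines at or below the detection limit. The median of Npr3 was 0.142 CPM, so the rho and the r of 0.89 rest largely on counts near that limit. Next for Cdx2 were Ybx2 (r = 0.90) and Inha (r = 0.88), whose coefficients fell to 0.33 and -0.12 without those lines. For Esx1 the 3 closest were Map7d2 (r = 0.88), Pof1b (r = 0.87) and Clybl (r = 0.85), with r = 0.63, 0.48 and 0.74 without the 2 farthest lines. For Eomes they were Ercc1 (r = 0.88), Gsto1 (r = 0.86) and Sqstm1 (r = 0.84), which kept r = 0.72, 0.59 and 0.50 and all peaked in retroviral OSKM replicate 1. Gata3 was followed by Cdipt (r = 0.80), the mesenchymal factor Twist1 (r = 0.74) and the phosphodiesterase gene Pde4b (r = 0.73), with r = 0.50, 0.71 and 0.59 without the 2 farthest lines. Krt7 was followed by Prps2 (r = 0.87), Fbxl16 (r = 0.85) and Arhgap9 (r = 0.83), with r = 0.73, 0.69 and 0.54 without them. Plac1 was followed by Fignl1 (r = 0.79), Emc8 (r = 0.78) and the carbonic anhydrase gene Car14 (r = 0.75), with r = 0.70, 0.73 and 0.68 without them. By Spearman's rho in place of Pearson's r, 5 of these 18 genes were again among the 3 closest. The lines share the TMM scaling, and coefficients picked as the highest of many carry no test.

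Differences between groups were tested with edgeR's quasi-likelihood test on all genes that passed the filter on low counts. Benjamini-Hochberg adjustment was used, with a threshold of 0.05. Comparisons of retroviral with lentiviral lines cannot separate the vector from cloning, table, passage or library size. Retroviral OSKM and lentiviral SKM lines differ in the factor set as well. Elf5, Gata3, Eomes, Krt7, Plac1 and Esx1 were tested. Cdx2, Tfap2c, Hand1 and Gcm1 did not pass the filter. None of the 6 tested genes was called in any of the 3 comparisons, and in 0 of the 10 genes did the values of 2 compared groups fail to overlap. For Cdx2, Hand1 and Gcm1 this was fixed in advance, since each had a line at 0 in every group. The shares of genes without overlap given below cover tested genes only. The comparisons share groups, so their values are given side by side without an overlap.

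For lentiviral SKM against lentiviral OSKM, the removal of Oct4 from the factor set, 0% of 15899 tested genes were called, and groups did not overlap for 0.736% of them. The unadjusted p was under 0.05 for 773 genes, and DESeq2 called 49 genes in all, none of them among the 5 of these 6 genes for which it gave an adjusted p (Esx1 had none). Krt7 had the lowest p of the 6, with a log2 fold change of -2.14 (SE 0.70, 95% interval -3.67 to -0.60, adjusted p = 0.979 by edgeR), and its value ran from -2.43 to -1.81 when each line was left out in turn. Esx1 had -2.25 (SE 1.43, 95% interval -5.40 to 0.90), a value that turned to 1.06 without lentiviral OSKM replicate 5. Gata3 (-0.50, SE 0.62), Plac1 (-0.56, SE 0.90), Eomes (-0.33, SE 0.62) and Elf5 (-0.33, SE 0.58) had intervals on both sides of 0. Gata3, Plac1 and Eomes turned to 0.08, 0.58 and 0.47 when 1 lentiviral OSKM line was left out, replicate 4 for Gata3 and Plac1 and replicate 1 for Eomes. The median over the 6 was -0.53, beside a median of 0 over all genes tested.

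For retroviral OSKM against lentiviral OSKM, 39 of 15483 genes were called (0.252%), and groups did not overlap for 4.05%. Eomes had a log2 fold change of 1.57 (SE 0.83, 95% interval -0.25 to 3.38, adjusted p = 0.417 by edgeR), which was 0.43 without retroviral OSKM replicate 1. It was -0.05 without that line and the other 2 libraries least similar to the rest, retroviral OSKM replicate 3 and lentiviral OSKM replicate 5. Krt7 had 0.95 (SE 0.91), and 0.15 without retroviral OSKM replicate 5. Plac1 had 0.11 (SE 0.99), Gata3 had 0 (SE 0.73) and Elf5 had -0.65 (SE 0.69). Esx1 had -0.87 (SE 1.32), and 2.42 without lentiviral OSKM replicate 5. The median over the 6 was 0.06, beside 0.03 over all genes tested.

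For retroviral OSKM against lentiviral SKM, 43 of 15370 genes were called (0.28%), and groups did not overlap for 4.24%. Krt7 had the largest estimate, a log2 fold change of 3.08 (SE 0.85, 95% interval 1.22 to 4.94, adjusted p = 0.154 by edgeR), which lay between 2.31 and 3.37 when each line was left out. DESeq2 gave it 3.07 and an adjusted p of 0.00428, past the threshold, and was the only one of the alternatives run to do so. Eomes had 1.89 (SE 0.73, 95% interval 0.28 to 3.50, adjusted p = 0.262 by edgeR), and 0.74 without retroviral OSKM replicate 1. Esx1 had 1.37 (SE 0.89), Plac1 0.68 (SE 0.91), Gata3 0.50 (SE 0.56) and Elf5 -0.31 (SE 0.61). Esx1 was 2.32 without lentiviral SKM replicate 2, and Plac1 was 1.41 without lentiviral SKM replicate 4. Gata3 turned to -0.28 without retroviral OSKM replicate 1. The median over the 6 was 1.03, beside 0.05 over all genes tested.

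**Figure D3:**
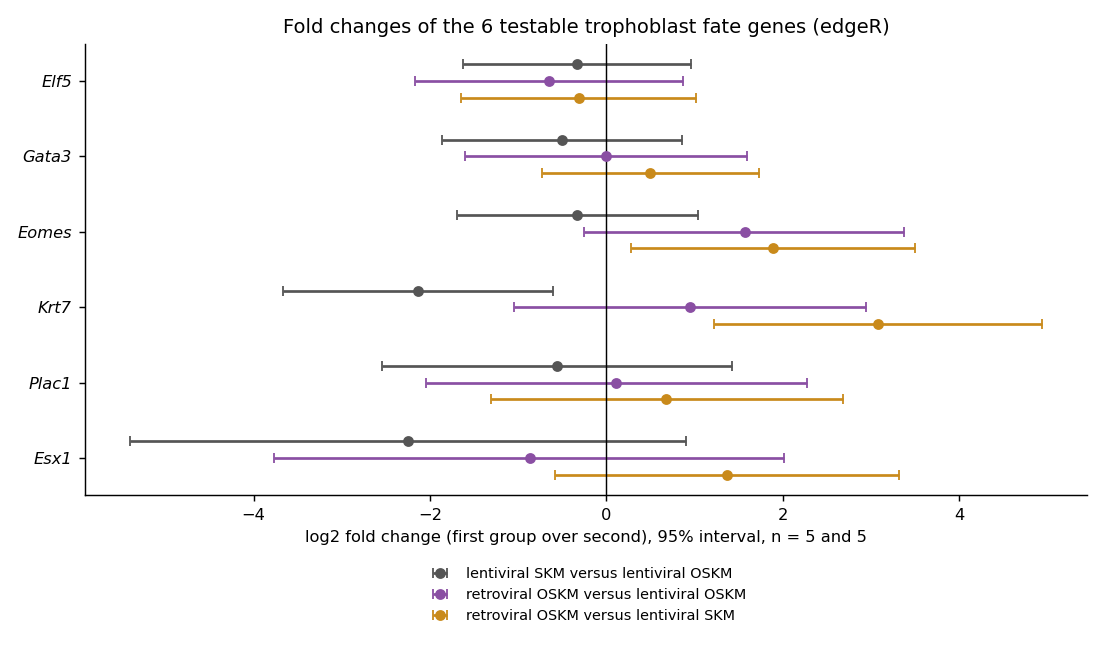
Log2 fold changes with 95% intervals (edgeR, 5 against 5 lines) of the 6 trophoblast fate genes that passed the filter on low counts, in 3 comparisons that share groups. The intervals of Krt7 lie clear of 0 for lentiviral SKM versus lentiviral OSKM (-2.14) and retroviral OSKM versus lentiviral SKM (3.08), and that of Eomes for the latter (1.89), but none of the adjusted p-values passed 0.05.

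The wider trophoblast programme was described with lists chosen for known roles. Of 20 further regulators of trophoblast stem cells, 8 were above 1 CPM in every line and 19 in some line. The highest were the Hippo pathway coactivators Yap1 (121 to 211 CPM) and Wwtr1 (62.3 to 155 CPM) and their DNA-binding partner Tead4 (27.5 to 117 CPM), which acts upstream of Cdx2 in trophectoderm. Tead4 was at 99.5 CPM in lentiviral OSKM replicate 5, the line with Cdx2 at 13.8 CPM, and at 117 CPM in retroviral OSKM replicate 2, where Cdx2 had 2 counts. A relation of Tead4 to the Cdx2 level was not tested. Esrrb, an orphan receptor of trophoblast and embryonic stem cells, did not exceed 0.192 CPM. Each of these abundant regulators is also used outside the trophoblast.

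**Figure D4:**
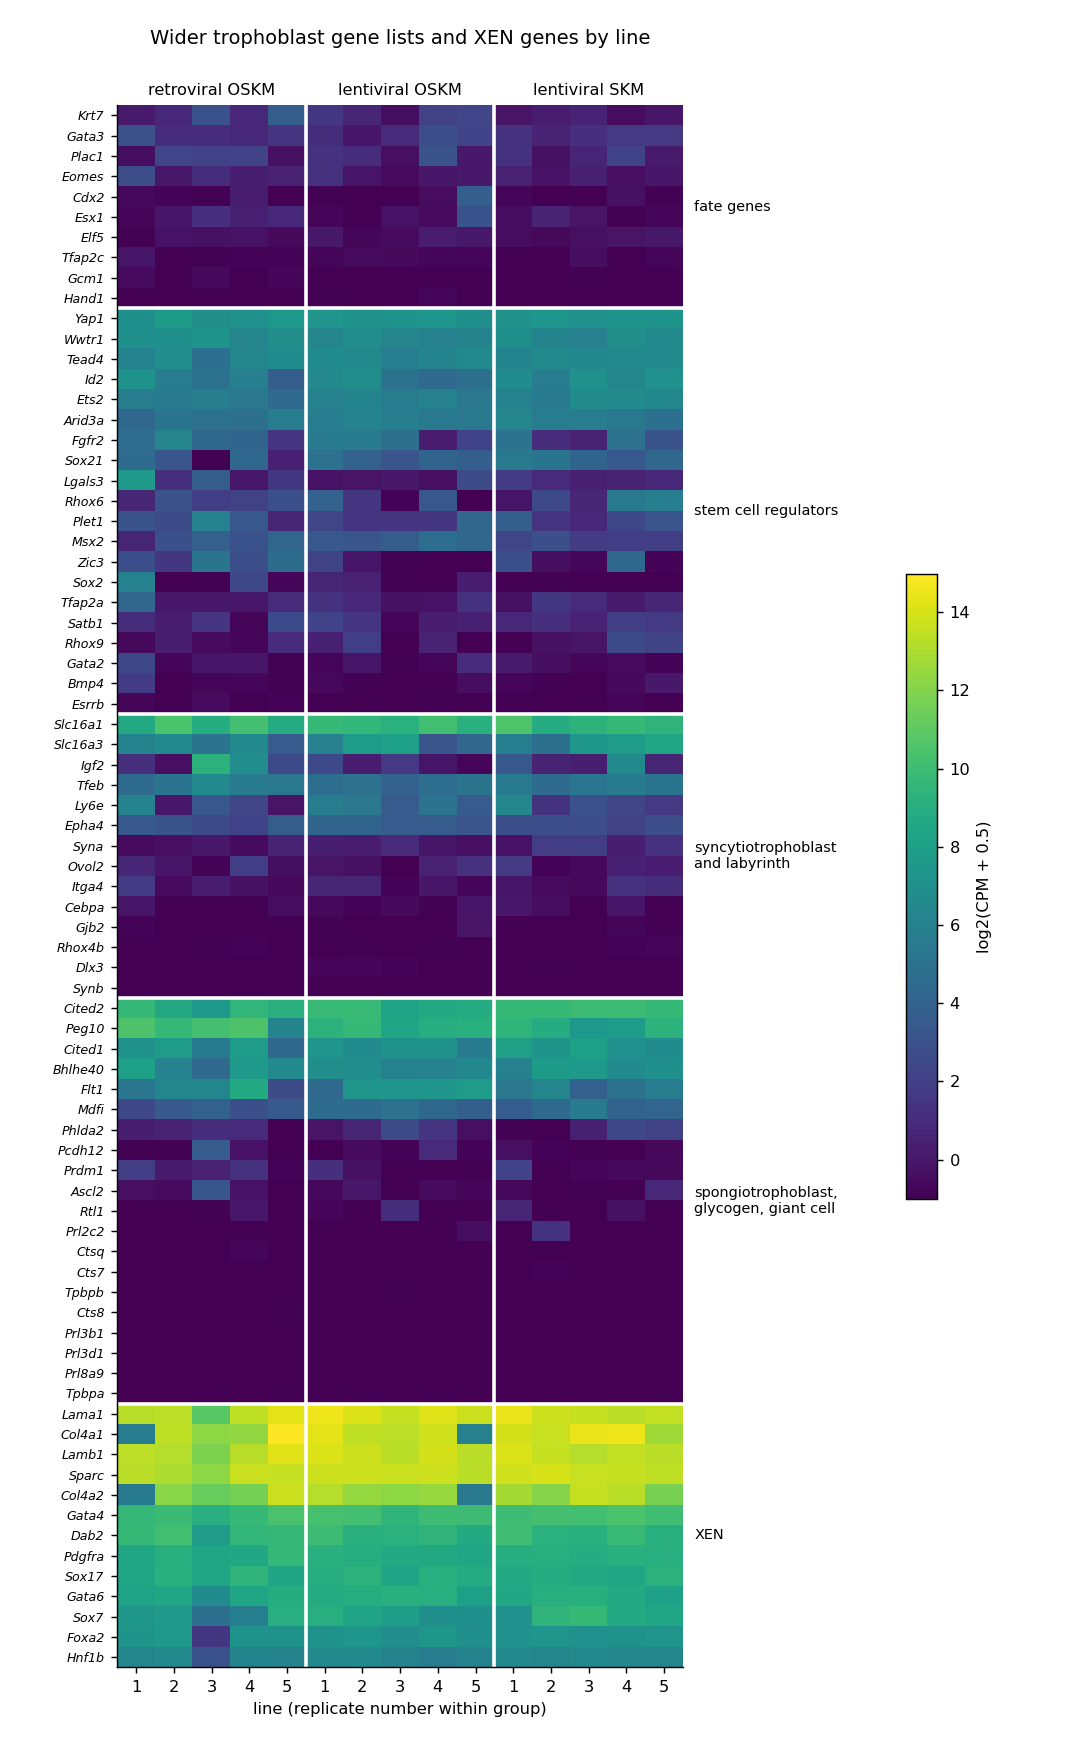
Levels as log2(CPM + 0.5) in colour for the 10 trophoblast fate genes, 54 further trophoblast genes in 3 lists and 13 XEN genes (rows, ordered by mean CPM within a list) in the 15 lines (columns). The fate genes stay at or below 13.8 CPM, whereas Yap1 (at least 121 CPM), Slc16a1 (at least 413 CPM) and Cited2 (at least 187 CPM) are higher in every line, and Col4a1 and Col4a2 are darker in retroviral OSKM replicate 1 and lentiviral OSKM replicate 5 than in the other 13 lines.

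Among 14 syncytiotrophoblast and labyrinth genes, 4 were above 1 CPM in every line and 9 in some line. Slc16a1, a lactate transporter (413 to 1531 CPM), and Slc16a3 (8.6 to 340 CPM) led, followed by the growth factor gene Igf2 (0.0718 to 619 CPM). Synb, a fusogenic envelope gene of the syncytiotrophoblast, had no count in any line, and Syna did not exceed 3.33 CPM. Of 20 spongiotrophoblast, glycogen and giant cell genes, 6 were above 1 CPM in every line, led by Cited2 (187 to 988 CPM), Peg10 (72.2 to 1487 CPM) and Cited1 (20.1 to 272 CPM), while 7 were not above the detection limit in any line. Tpbpa, the spongiotrophoblast marker, and the placental lactogen and prolactin family genes Prl3d1, Prl3b1 and Prl8a9 had 0 counts in all 15 lines, and Prl2c2 reached 2.06 CPM in 1 line, lentiviral SKM replicate 2. Ascl2 and Pcdh12 were both highest in retroviral OSKM replicate 3, at 9.19 and 11.9 CPM, against at most 1.26 and 1.43 CPM in the other 14 lines.

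No gene of these 3 lists was called in any comparison, with 17, 10 and 7 genes tested for lentiviral SKM against lentiviral OSKM, 18, 9 and 9 for retroviral OSKM against lentiviral OSKM, and 17, 10 and 8 for retroviral OSKM against lentiviral SKM. Calls were as rare over all genes tested, at 0%, 0.252% and 0.28%, so their absence does not set the lists apart. In the comparison of the lentiviral groups 12 of 17 stem cell regulators, 8 of 10 syncytiotrophoblast genes and 4 of 7 spongiotrophoblast genes had estimates above 0, with medians of 0.05, 0.50 and 0.01. The median over all genes tested was 0 there. For retroviral against lentiviral OSKM the medians of these 3 lists were 0.12, 0.01 and 0.14, beside 0.03 over all genes tested. For retroviral OSKM against lentiviral SKM they were 0.07, -0.04 and -0.30, beside 0.05. The ephrin receptor gene Epha4 had -1.17 (SE 0.26, adjusted p = 0.758 by edgeR) and the homeobox gene Msx2 had -1.84 (SE 0.37, adjusted p = 0.758 by edgeR) for lentiviral SKM against lentiviral OSKM, and both were picked out after their values were seen. Msx2 was at 9.4, 9.25, 12.6, 26.6 and 18.8 CPM in lentiviral OSKM lines and at 4.66, 7.04, 2.9, 3.35 and 3.45 CPM in lentiviral SKM lines, so these groups did not overlap.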

How the data were processed

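Polyadenylated RNA of 15 lines was measured by RNA sequencing. The submitters deposited whole-number counts per Ensembl gene in separate tables for the retroviral and the lentiviral lines, per the file headers. The submitters' processing notes name Trimmomatic 0.39, FastQC 0.11.7, HISAT2 2.1.0, SAMtools 1.9, HTSeq 0.11.2 and the mm10 build. The sources name no annotation, strand setting or filter. The 5 HTSeq summary rows, 23.0 to 31.2% of the entries of a library, were left out. Symbols were found for 42462 of 43432 identifiers, of which 14907 had no counts. Positions are from GENCODE M21 on GRCm38.

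CPM values used TMM factors over all 15 libraries and log2 values a pseudocount of 0.5. Comparisons used edgeR 4.0.16 (quasi-likelihood, min.count of 10 in filterByExpr, only the groups compared, no covariate) in R 4.3.3, with limma 3.58.1 and DESeq2 1.42.0 as alternatives, besides other scalings, no filter, all libraries in the fit, a replicate block and each library left out. Leaving out the 3 least similar libraries was chosen after seeing the data. In simulated counts with 200 changed genes, for lentiviral SKM against lentiviral OSKM (15503 genes), the test recovered 82% of changes by 16-fold, 78% by 8-fold, 64% by 4-fold and 10% by 2-fold. Of 125 calls in that simulation, 8 were false. The changed genes were drawn from all genes that passed the filter, so these rates need not hold for genes as low as the 10. Counting intervals are exact Poisson at 95% and, like the limit of 3 counts, cover counting error only.

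The 10 genes and the marker lists were chosen with earlier results of these data known. All 10 genes are named, the 3 genes most like each member that reached 5 CPM were named by Pearson correlation, and genes of the lists were named for their level or role, some after their values were seen.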

Additional observations from a re-analysis of the deposited data

Results flagged for a closer look

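Lines were flagged where the gap to the nearest line of the same group took more of the group's range on the log2(CPM + 0.5) scale than Dixon's critical value for 5 samples (0.71). Of 30 groups examined 5 were flagged. Chance flags about 1 in 20 groups of normally distributed values, but many of these groups had lines at 0. The number of flags can therefore not be set against that rate. Cdx2 stood apart in lentiviral OSKM replicate 5, with a gap of 0.89 of the range, and in retroviral OSKM replicate 4, with a gap of 0.74 (0.738 CPM from 26 counts). Esx1 stood apart in lentiviral OSKM replicate 5, with a gap of 0.82. With a pseudocount of 0.1 in place of 0.5, Esx1 in lentiviral OSKM replicate 5 and Cdx2 in retroviral OSKM replicate 4 no longer passed the critical value. Tfap2c stood apart in retroviral OSKM replicate 1, with a gap of 0.83, at 16 counts. Gcm1 had a gap of 1.0 in lentiviral SKM replicate 3, which had 2 counts where the other 4 lines had 0, a level under the detection limit.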

How the results depend on the processing

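Over 323 alternative values for the tested genes, 295 kept their direction and their side of the threshold, 27 changed sign and 1 passed the threshold (Krt7, retroviral OSKM against lentiviral SKM, DESeq2, adjusted p = 0.00428). Several of the 27 were values of Gata3 for retroviral against lentiviral OSKM. Its main estimate there was 0, so a change of sign carries little meaning. DESeq2 called 49 genes for lentiviral SKM against lentiviral OSKM, 590 for retroviral against lentiviral OSKM and 617 for retroviral OSKM against lentiviral SKM, where edgeR called 0, 39 and 43. In the last 2 comparisons edgeR called 24 and 22 genes with no filter, 155 and 145 with all 15 libraries in the fit, and 7 and 9 without the 3 least similar libraries, and limma voom called 63 in the first of these. Leaving out each library gave 0 to 0, 15 to 101 and 13 to 62 calls. Without the 3 least similar libraries, Esx1 turned to 1.06 for lentiviral SKM against lentiviral OSKM and to 2.34 for retroviral against lentiviral OSKM, Eomes to -0.05 in the latter, and Gata3 to -0.26 for retroviral OSKM against lentiviral SKM. For retroviral against lentiviral OSKM, voom gave 0.15 for Gata3 and 1.32 for Esx1, and upper quartile scaling gave 0.01 for Gata3. The causes were not tested.

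With the replicate number as a block, calls were 0, 3 and 5. For retroviral against lentiviral OSKM, Gata3 was then at 0.18, from 0, and Esx1 turned to 1.39. The numbers share no stated source, and same-numbered lines correlated at -0.17 to 0.28, so they do not pair the lines.

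With each library left out, for lentiviral SKM against lentiviral OSKM, Gata3 ran from -0.77 to 0.08, Eomes from -0.58 to 0.47, Plac1 from -1.29 to 0.58 and Esx1 from -3.19 to 1.06. For retroviral against lentiviral OSKM, Gata3 ran from -0.78 to 0.58, Plac1 from -0.20 to 1.26 and Esx1 from -1.30 to 2.42, and for retroviral OSKM against lentiviral SKM Gata3 ran from -0.28 to 0.68, Esx1 from 0.94 to 2.32 and Plac1 from 0.39 to 1.41. Pairs above 1 CPM numbered 33 to 37, from 38 over all lines, and pairs above the limit 95 to 98, from 104. These drops are no test, since each line left out takes its own pairs with it. At 2 CPM there were 22 pairs, and on the linear CPM scale 7 genes had a line standing apart, with a pseudocount of 1 there were 5 and with 0.1 there were 3, against 4. Of the 18 genes most like a member, 5 were also found by Spearman's rho. Depth limits Cdx2, Tfap2c, Hand1 and Gcm1, which were at or below the limit in 9, 7, 14 and 13 lines.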
